A study of Danio rerio with 370 samples.

Results

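The Notch pathway genes of the adult zebrafish forebrain were followed in single cells sorted as radial glia (RG), newborn neurons (NBN) and mature neurons (MN). Genes were taken from the count table by symbol, with case ignored. Symbols starting with notch, jag, hes, hey, or her and a digit were taken, together with the named Delta genes, dlk genes, *rbpj*, *maml*, *mib1*, *numb*, *numbl*, *lfng* and *nrarp*, and the *her4* genes were left out. This rule found 48 of 32266 genes, of which 41 had a read in a cell that passed the quality filters. By role, 5 were receptors, 5 Delta ligands, 4 Jagged ligands, 1 a dlk gene, 10 effectors or modifiers and 20 *her*, *hes* or *hey* genes, and 3 met the rule by their letters only. The latter were 2 genes with the symbol *JAGN1*, which encodes the endoplasmic reticulum protein Jagunal, and *DLD*, here the human symbol of dihydrolipoamide dehydrogenase. *her11*, *her5*, *her1*, *jag2a*, *notchl* and both *HES2* genes had no read. Many zebrafish genes carry the symbol of the human gene in the Ensembl table used, and which *DLL1* gene is *dla* or *dld* is not given there. Genes that share a symbol are lettered here, only as labels, in the order of their identifiers: *DLL1* A (ENSDARG00000010791) and B (ENSDARG00000020219), *NOTCH1* A (ENSDARG00000052094) and B (ENSDARG00000103554), *HES6* A (ENSDARG00000007097) and B (ENSDARG00000019335), *NRARP* A (ENSDARG00000018958) and B (ENSDARG00000091419), *RBPJ* A (ENSDARG00000003398) and B (ENSDARG00000052091), *JAGN1* A (ENSDARG00000014995) and B (ENSDARG00000041071).

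In Notch signalling a ligand of the Delta or Jagged type on one cell, the sender, binds a Notch receptor on its neighbour, the receiver. The cleaved receptor domain then joins the DNA-binding protein RBPJ and Mastermind proteins in the nucleus and activates *her*, *hes* and *hey* genes, which encode repressors of proneural genes. Genes with these symbols are called targets below by their symbols only, and whether Notch drives each of them was not tested. In the adult zebrafish pallium, Notch signalling is known to hold radial glia in quiescence, and *notch3* is the receptor tied to that state. Ascl1a is a proneural transcription factor of activated progenitors, and proneural factors are known to switch on Delta genes.

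Cells came from the dissected telencephalon and anterior diencephalon of adult fish that carried 2 transgenes, *her4.1:mcherry* and *elavl3:GFP*. Each brain was dissociated with papain and sorted by itself. The RG gate held cells with high mCherry and no GFP, the NBN gate cells with low mCherry and GFP, and the MN gate GFP cells without mCherry. mCherry was driven by the promoter of *her4.1*, itself a Notch target, so the RG gate was chosen on a reporter of the pathway. The *her4* genes were left out for this reason, which does not free the other targets and *NRARP* genes from that choice. Each gate was sorted from 6 fish except the MN gate, which came from 1 fish that forms batch bfx811 and cannot be told apart from that batch.

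The numbers of fish 1 to 5 were read from the sample names. The label of the samples named FISH id has only 4 values, 1 for batch bfx811 and 3 for the other fish, and it splits fish 2 and fish 4 between values. With these 4 values in place of 6 fish no exact test over pairs can pass 0.05, so the p-values over 6 fish rest on the names.

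After the quality filters 73 of 171 RG, 164 of 169 NBN and 27 of 30 MN cells remained, with a median of 211548, 270898 and 191372 reads per cell. Reads of these cells were summed per fish and gate, which gave 6 RG sums of 1539845 to 5473055 reads and 6 NBN sums of 3228221 to 11933343 reads, from 5 to 23 RG cells and 26 to 28 NBN cells a fish. Levels are given as reads per 1000000 reads of the sum (CPM), as mean ± SD over fish. The gates held their labelled cells by their markers: 9 radial glia identifiers summed to 16633 to 50666 CPM in the RG sums and 553 to 3588 CPM in the NBN sums, and 6 neuronal identifiers to 305 to 1398 and 8473 to 12111 CPM. Endothelial cells, which also express Notch genes, left little RNA: 3 of 5 endothelial identifiers had no read in RG cells, and their sum reached at most 36.4 CPM. In RG sums 3 microglial identifiers reached up to 2008 CPM (1 at 0, a read in 12 of 73 cells), 4 pericyte identifiers up to 134 CPM (3 at 0) and 1 ependymal identifier up to 279 CPM. Of the oligodendrocyte lineage, 4 identifiers reached up to 359 CPM in an NBN sum, with a read in 17 of 164 NBN cells, and up to 151 CPM in an RG sum, where 1 identifier was at 0, with a read in 4 of 73 cells. Cycling markers, 4 identifiers, summed to 253 to 4377 CPM in RG and 28.7 to 280.4 CPM in NBN. The part of these cells in the results was not tested.

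The first question was how genes of senders and receivers differ between RG and NBN. In radial glia 7 *her* and *hes* genes, *DLL1* A and *NRARP* B, a feedback inhibitor of Notch, were higher than in newborn neurons, by 4.93 to 8.39 on the log2 scale. The gates were sorted on a Notch reporter, and the part of the sort in these differences was not tested. No receptor passed the main test, although *NOTCH3* was higher in radial glia in 6 of 6 fish, and DESeq2 called 2 receptors, *NOTCH3* and *NOTCH1* A. The test across all genes was the quasi-likelihood test of edgeR, and its p-values were adjusted over all genes after Benjamini and Hochberg. Of all genes, 8.47% of 8393 tested were called, 1.81% higher in the RG gate and 6.66% lower. Of the 48 genes of the list, 26 passed the filter on low counts, and 10 of these were called. Of these, 9 were higher in the RG gate, namely *HES1*, *HES4*, *her15.1*, *her15.2*, *her2*, *her8.2*, *her8a*, *DLL1* A and *NRARP* B, and 1, *JAGN1* B, was lower. A gene that passed the filter only through the gate where it is high had to differ, so the share of called genes among those that passed is a description. The median log2 fold change was 3.36 over the 26 genes and -0.69 over all genes tested. Without fish 2, 6 genes of the list were called in place of 10, and within the 5 fish of the other batch, without that of batch bfx811, 12 were called. The genes gained there were *JAGN1* A, *NRARP* A and *MAML3*. In each, the gate with the lower level had its highest sum in batch bfx811, so these calls follow from the fish left out and add no support. DESeq2, with a filter of its own, called 19 of the list, and of 13735 genes 849 higher and 1840 lower in RG. The mean of per-cell CPM with limma called 14 of the list, and of 7576 genes 366 higher and 1571 lower. Both thus called a larger part of all genes than the main fit. Not called below means not called by edgeR. In a sum, fewer cells with a transcript and less RNA per cell cannot be told apart, so shares of cells are given further on.

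Among the targets, *HES1* stood at 2939.9, 3026, 2069, 4186, 1544 and 4130.3 CPM in the RG sums of fish 1 to 5 and of the fish of batch bfx811, the order used for every such list. In the NBN sums it stood at 0.177, 61.5, 0.754, 76.8, 0.323 and 75.3 CPM. Every RG sum was above every NBN sum, and the NBN sums fell into 3 near 0 and 3 between 61.5 and 76.8 CPM. The log2 fold change was 6.17 ± 1.26 SE (adjusted p = 0.00364). *HES4*, also a repressor of the Hes family, stood at 3821, 1601, 985, 2299.8, 401 and 2588 CPM in RG sums and 63.0, 0.133, 0.0838, 58.6, 0.108 and 179 CPM in NBN sums. The gates did not overlap, with a log2 fold change of 4.93 ± 1.43 SE (adjusted p = 0.0382), and the call was lost without fish 1, 2 or 4 (adjusted p up to 0.0869).

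*her15.1* and *her15.2* are near-identical neighbouring genes of the Hes5 type, whose reads can be hard to assign, so their split is uncertain. *her15.1* measured 937, 2446, 769.6, 2403, 400.0 and 2789 CPM in the RG sums and 33.7, 19.5, 16.5, 0, 0.323 and 99.1 CPM in the NBN sums. For *her15.2* the values were 1168, 2983, 1033, 3139, 461 and 3703 CPM and 44.0, 35.4, 15.3, 2.12, 0.431 and 164 CPM. Both genes had the same order over the fish at the ends, lowest in fish 5 and highest in the fish of batch bfx811 in the RG gate, and no RG sum was as low as any NBN sum. Their log2 fold changes were 5.59 ± 1.27 SE (adjusted p = 0.00651) and 5.31 ± 1.13 SE (adjusted p = 0.0044).

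*her8.2* and *her8a*, repressors of the same family, were almost absent from the NBN gate. *her8.2* stood at 375, 124, 88.0, 255, 380.1 and 204 CPM in the RG sums and at 0, 0, 0, 0, 0.108 and 3.41 CPM in the NBN sums. *her8a* stood at 82.5, 112, 175, 173, 204 and 70.9 CPM against 0, 0, 0, 0, 0 and 4.96 CPM. In both genes the only NBN sum above 1 CPM was that of batch bfx811, and every RG sum was higher than it. The log2 fold changes were 8.39 ± 1.65 SE (adjusted p = 0.00283) and 6.95 ± 1.86 SE (adjusted p = 0.0218), and the call of *her8a* was lost without fish 2 (adjusted p = 0.0579). *her2* ranged widely between fish, with 0, 2248, 87.4, 1298, 11.8 and 1041 CPM in RG sums and 0, 0, 7.63, 0, 0.108 and 9.29 CPM in NBN sums. In fish 1 it had no read in either gate, and in fish 5 its RG level lay close to the highest NBN sum. It differed by a log2 fold change of 7.87 ± 2.04 SE (adjusted p = 0.0174), and without fish 2 the adjusted p was 0.0669.

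**Figure D1:**
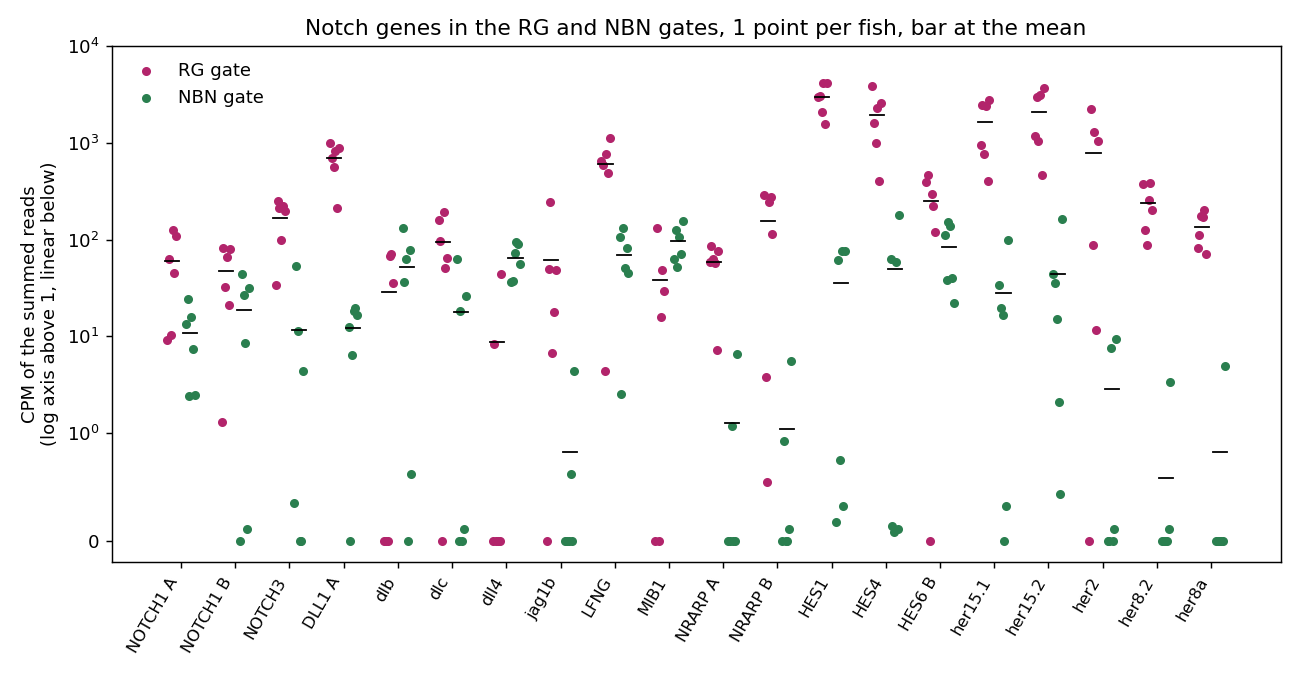
CPM of the summed reads of 20 Notch genes (horizontal axis, by role) in the RG gate (magenta) and the NBN gate (green), on an axis that is logarithmic above 1 CPM and linear below. Each point is 1 of 6 fish and each black bar the mean of a gate: the RG points of HES1, HES4, her15.1, her15.2, her8.2, her8a and DLL1 A all lie above their NBN points, while dll4 and MIB1 have the higher NBN mean.

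*HES6* differs from the other targets in role, since in mouse it inhibits Hes1 and promotes neuronal differentiation. *HES6* B had 392, 466, 0, 296, 221 and 120.3 CPM in RG sums and 112, 38.5, 150.2, 137, 39.7 and 22.3 CPM in NBN sums, and it had a read in 30 of 73 RG cells, 30 of 164 NBN cells and 9 of 27 MN cells. RG and NBN sums overlapped at a log2 fold change of 1.35 ± 0.98 SE (adjusted p = 0.581). *HES6* A, with at most 62.7 CPM in an RG sum and 1.24 CPM in an NBN sum, did not pass the filter of edgeR, and DESeq2 called it (adjusted p = 0.00166). Of the remaining targets, *HEY1* averaged 84.4 ± 94.0 CPM in RG and 4.87 ± 11.9 CPM in NBN and *her12* 127 ± 232 and 1.39 ± 3.41 CPM, with a read in 14 RG cells each, and neither passed the filter. DESeq2 called *her12* (adjusted p = 0.0288). *HEY2* passed it and was not called (adjusted p = 0.914). *heyl*, *her7* and *HES3* had a read in at most 2 cells of any gate.

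Of the ligands, *DLL1* A separated the gates. Its RG sums stood at 1001, 693, 564, 821, 211 and 873 CPM and its NBN sums at 12.4, 0, 6.45, 18.4, 19.8 and 16.7 CPM. The lowest RG sum, of fish 5, was far above the highest NBN sum. Its log2 fold change of 5.58 ± 0.96 SE (adjusted p = 0.000951) was called also with any 1 of the 6 fish left out. *DLL1* A had a read in 47 of 73 RG cells and in 6 of 164 NBN cells. *DLL1* B was lower and patchy, at 55.8, 232, 0, 160.1, 0 and 128 CPM in RG and 0, 0, 37.6, 0, 24.9 and 1.55 CPM in NBN (adjusted p = 0.507). *dlc* stood at 93.8 ± 71.4 CPM in RG and 17.9 ± 24.7 CPM in NBN (adjusted p = 0.628).

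*dll4* had the opposite order, and *dlb* had no clear order. *dll4* stood at 0, 8.34, 0, 0, 0 and 44.4 CPM in the RG sums and 36.7, 37.2, 72.0, 94.4, 90.9 and 56.1 CPM in the NBN sums, so that the NBN sum was the higher in 6 of 6 fish. The gates still overlapped through the RG sum of batch bfx811, and the change was not called, at a log2 fold change of -2.78 ± 1.70 SE (adjusted p = 0.474). On the mean of per-cell CPM limma called it lower in RG (adjusted p = 0.00623). The reads came from few cells: 2 of 73 RG cells and 16 of 164 NBN cells. In 13 of those NBN cells, from all 6 fish, *dll4* had at least 5 reads, with a median of 668 CPM in the cell. *dlb* averaged 29.0 ± 34.1 CPM in RG and 51.6 ± 50.4 CPM in NBN, with no read in the RG sums of fish 1 to 3 (adjusted p = 0.883). Its RG sum was the higher in 2 of 6 fish. After thinning it had a read in 4 of 73 RG cells and 8 of 164 NBN cells, which are similar shares.

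Jagged ligands were scarce in both gates. *jag1b* stood at 0, 49.3, 246, 6.76, 17.6 and 48.9 CPM in the RG sums and 0, 0, 0, 0.624, 0 and 4.34 CPM in the NBN sums, and the RG mean rested on fish 3. The RG sum was higher in 5 of 6 fish and the change was not called, at a log2 fold change of 5.65 ± 2.16 SE (adjusted p = 0.146), while DESeq2 called it (adjusted p = 0.00747). *jag2b* did not pass the filter and had a read in 1 RG cell, 8 NBN cells and 3 MN cells. *jag1a* had a read in 6 cells in all and *DLK2*, of the Delta-like non-canonical ligands, in 7.

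Receptor genes had reads in both gates and were higher in RG in most fish. *NOTCH3* stood at 33.8, 248, 212, 99.0, 221 and 199 CPM in the RG sums and 0.355, 53.2, 11.2, 0, 0 and 4.34 CPM in the NBN sums, and was higher in RG in 6 of 6 fish. The log2 fold change of 3.70 ± 1.46 SE (adjusted p = 0.167) was not called, but it was once gates were compared within each fish, by a block for the fish (adjusted p = 0.0393). It was also called by DESeq2 (adjusted p = 0.0468) and by limma on the mean of per-cell CPM (adjusted p = 0.00139). *NOTCH1* A stood at 9.09, 63.0, 10.3, 126, 45.7 and 108 and 13.3, 24.2, 2.43, 15.7, 7.32 and 2.48 CPM, higher in RG in 5 of 6 fish, with a log2 fold change of 2.44 ± 1.21 SE (adjusted p = 0.32) that only DESeq2 called (adjusted p = 0.0345). *NOTCH1* B stood at 1.30, 81.5, 32.0, 66.7, 21.3 and 80.2 and 0, 43.9, 27.0, 8.49, 0.108 and 31.9 CPM, higher in RG in 6 of 6 fish by amounts well inside the spread (adjusted p = 0.806). *notch2* had a read in 8 RG and 5 NBN cells and did not pass the filter.

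Among the modifiers, the 2 *NRARP* genes encode an ankyrin repeat protein that is induced by Notch and dampens it. *NRARP* B stood at 291, 3.79, 0.543, 242, 278 and 113 CPM in the RG sums and 0, 0.93, 0, 0, 0.108 and 5.58 CPM in the NBN sums. Fish 2 and 3 had almost none in the RG gate, and the other 4 RG sums were far above the NBN sums. It differed by a log2 fold change of 6.76 ± 1.91 SE (adjusted p = 0.0314), and the call was lost without fish 1, 2, 4 or 5 (adjusted p up to 0.0765). Without batch bfx811 *NRARP* B was not tested, so the call stayed only without fish 3 (adjusted p = 0.0168). It was not among the genes that limma called on the mean of per-cell CPM. *NRARP* A stood at 58.4, 86.1, 63.5, 57.7, 7.28 and 75.4 and 0, 0, 1.17, 0, 0 and 6.51 CPM, and every RG sum was above every NBN sum. It was not called in the fit without a block (adjusted p = 0.137) and was called with it (adjusted p = 0.0491) and after batch bfx811 was left out (adjusted p = 0.042). That batch held its highest NBN sum, so leaving it out favours a call, and the last call adds no support.

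*LFNG*, the fringe glycosyltransferase that modifies Notch receptors, stood at 653, 589, 4.35, 773, 486 and 1115 CPM in the RG sums and 106, 2.53, 132, 51.3, 80.9 and 44.9 CPM in the NBN sums. In fish 3 it was lower in RG than in NBN, and in the other 5 fish it was higher in RG. The log2 fold change of 2.96 ± 0.95 SE (adjusted p = 0.0657) was not called, and it was called by DESeq2 (adjusted p = 0.0205). EdgeR called it without fish 3 (adjusted p = 0.00849), the only fish with the opposite order, so that call adds no support. *MIB1*, the ubiquitin ligase that senders need for Delta endocytosis, stood at 0, 133, 0, 15.7, 48.7 and 29.7 CPM in RG and 63.2, 126, 52.6, 107, 70.3 and 155 CPM in NBN, higher in NBN in 5 of 6 fish and not called, at a log2 fold change of -1.50 ± 1.25 SE (adjusted p = 0.651). *MAML3*, a Mastermind co-activator, averaged 2.75 ± 6.54 CPM in RG and 41.5 ± 25.6 CPM in NBN and was higher in NBN in 6 of 6 fish (adjusted p = 0.311). Limma on the mean of per-cell CPM called *MAML3* (adjusted p = 0.00117), as did edgeR when batch bfx811 was left out (adjusted p = 0.00919). That batch held its highest RG sum, 16.1 CPM, so the call without it follows from the fish left out and adds no support. *numbl*, a homologue of the Notch antagonist Numb, had no read in any RG sum and 24.5, 20.3, 0.419, 0.499, 25.3 and 16.7 CPM in the NBN sums, but it did not pass the filter of edgeR, and DESeq2 called it (adjusted p = 6e-05). Its NBN mean was 90.7-fold a limit of 3 reads over all RG sums, which covers counting of reads and not of cells. By cells, *numbl* had a read in 0 of 73 RG cells, which allows up to 4.11%, and in 17 of 164 NBN cells (10.4%). *RBPJ* A and B, *NUMB* and *MAML1* averaged under 20 CPM in both gates.

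The shares of cells with a read showed the same order by role without the weight of cells with many reads. Each cell was thinned to 20000 reads, since deeper cells show more genes. A receptor read was found in 58 of 73 RG cells and 17 of 164 NBN cells. Within fish, the RG share was higher by 66.3 ± 15.9 percentage points (SD, n = 6 fish) and was so in 6 of 6 fish. An exact two-sided permutation test over the signs of the 6 differences gave p = 0.031, the smallest that 6 fish allow, or 0.0417 adjusted over the 4 roles. A read of a *her*, *hes* or *hey* gene other than *HES6* was found in 63 RG and 21 NBN cells. The difference was 73.4 ± 9.98 points in 6 of 6 fish with the same exact p = 0.031. It is not independent of the sort, which used a reporter of a Notch target. A Delta read was found in 46 RG and 27 NBN cells, a difference of 44.8 ± 16.1 points in 6 of 6 fish, again with the exact p = 0.031. Jagged reads were found in 14 RG and 9 NBN cells, and the difference of 12.2 ± 12.1 points, in 5 of 6 fish, did not pass the test (exact p = 0.0625). Without thinning the Jagged difference was 12.98 points in 6 of 6 fish (exact p = 0.031).

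These shares hold for cells that passed the quality filters. Of the RG cells that failed them, 81 had at least 20000 reads, and only 12 of these (14.8%) had a read of a *her*, *hes* or *hey* gene, 10 (12.3%) of a receptor and 4 (4.94%) of a Delta ligand. Over all cells of the gates with at least 20000 reads, the differences were 35.0 points for targets and 33.1 points for receptors (both exact p = 0.031), and 15.09 points for Delta ligands, higher in RG in 3 of 6 fish (exact p = 0.25).

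**Figure D2:**
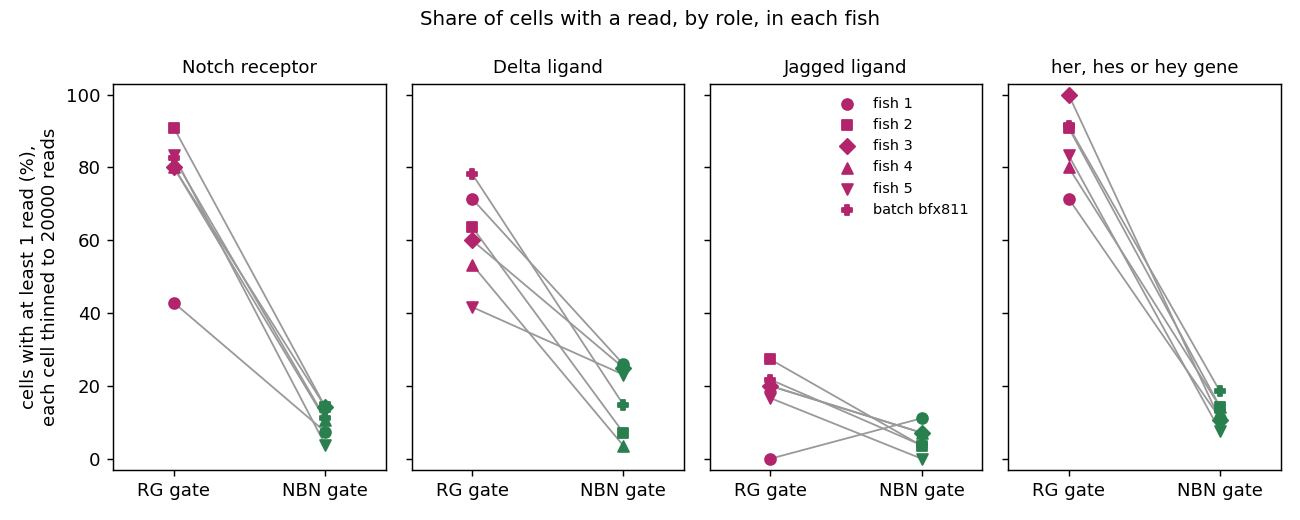
Percent of cells with at least 1 read of any gene of a role (vertical axis, each cell thinned to 20000 reads) in the RG gate (magenta) and the NBN gate (green), with a line for each of 6 fish. Every line falls from RG to NBN for receptors, Delta ligands and her, hes or hey genes, and fish 1, with 42.9% of its RG cells holding a receptor read, sits below the other 5 fish. For Jagged ligands the line of fish 1 rises.

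Sender and receiver genes were found in the same radial glia. Both kinds of gene were common there, and whether they fell together more often than their shares give was not tested. After thinning, 42 of 73 RG cells (57.5%) held a read of a receptor and of a Delta or Jagged ligand, 16 a receptor only, 7 a ligand only and 8 neither. Of the 46 RG cells with a Delta read, 45 also held a target read. In the NBN gate 5 of 164 cells (3.05%) held receptor and ligand, 30 a ligand only, 12 a receptor only and 117 neither. Of the 27 NBN cells with a Delta read, 4 held a target read. Radial glia held a median of 5 different *her*, *hes* or *hey* genes a cell, and 58 of 73 held at least 3, against a median of 0 in the NBN gate.

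Within radial glia, 37 cells had a *NOTCH3* read and 32 a *NOTCH1* A read, and 15 held both. Whether this number departs from what the shares of the receptors give was not tested. Of the RG cells, 25 held 1 Delta gene, 17 held 2 and 4 held 3. In the NBN gate 6 cells held at least 3 targets. They came from 4 fish, all 6 had an *elavl3* read, 3 had a *her4.1* read, and together they gave 61.6% of all target reads of the gate. Without them the NBN target level was 51.8 CPM in place of 130 CPM over the pooled cells, against 10803 CPM in RG cells. These 6 cells held a median of 2549.5 genes against 1634 over all NBN cells, and whether a well held more than 1 cell was not tested.

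The next question was how these genes vary among radial glia with *ascl1a*. Of 73 RG cells 25 had a read of *ascl1a*, with a median of 169 reads and only 1 cell under 5 reads, so that few cells lay near the threshold. *ascl1a*-positive cells came from 5 fish, 10 of them from batch bfx811, 6 from fish 2, 5 from fish 4 and 2 each from fish 1 and 5. Depth was lower in positive cells, with a median of 187883 reads against 252180. With at least 3 cells a sum, 3 positive sums (fish 2, 4 and batch bfx811) were compared with 6 negative sums.

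Across all genes 0.566% of 7062 were called, among them *ascl1a*, which set the classes. Of the 48 list genes 27 were tested and none was called by edgeR's quasi-likelihood test. An unadjusted p under 0.05 was found for 6 of the 27 and for 467 of all 7062 genes tested. DESeq2 called 0 of the list, and of 5878 genes 41 higher and 156 lower in positive cells. The mean of per-cell CPM with limma called 3, which were *her15.1*, *her15.2* and *her2*, and of 7075 genes 12 higher and 43 lower in positive cells. EdgeR without a filter on low counts called 1, *her15.2* (adjusted p = 0.0311), and of 17013 genes 13 higher and 43 lower. The median log2 fold change was 0.91 over the 27 genes and -0.12 over all genes tested. Here and between gates, how many of all genes tested lacked overlap was not counted. A statement that groups did not overlap describes the named gene only.

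*DLL1* A was found in more of the positive cells. After thinning it had a read in 23 of 25 positive and 21 of 48 negative cells, and the share was higher in positive cells in 5 of 5 fish that had both (2 of 2 against 3 of 5 in fish 1, 5 of 6 against 1 of 5 in fish 2, 5 of 5 against 3 of 10 in fish 4, 2 of 2 against 3 of 10 in fish 5, and 9 of 10 against 8 of 13 in batch bfx811). The 3 positive sums stood at 1168, 1904 and 1265 CPM and the 6 negative sums at 448, 149, 564, 214, 168 and 620.5 CPM. The classes did not overlap, and the log2 fold change of 1.90 ± 0.67 SE (adjusted p = 0.423) was not called. With a block for the fish it was 2.21 (edgeR adjusted p = 0.0705) and also not called. In single cells the median was 953 CPM in positive and 0 CPM in negative cells.

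*DLL1* B and *dlc* were also higher in positive sums, and no Delta gene was called. *DLL1* B stood at 337, 315 and 229 CPM in positive and 84.5, 114, 0, 73.0, 0 and 62.7 CPM in negative sums (adjusted p = 0.9998). After thinning it had a read in 7 of 25 against 4 of 48 cells, and the positive sums rested on 1, 2 and 4 cells. *dlc* stood at 181, 469 and 126 and 0, 0, 0, 37.9, 0 and 24.2 CPM, with a read after thinning in 8 of 25 against 2 of 48 cells (adjusted p = 0.623). In neither gene did the classes overlap. *dlb* overlapped between classes and was found in 3 of 25 positive and 1 of 48 negative cells. *dll4* had a read in 1 cell of each class, at 3.75 CPM over pooled positive and 12.3 CPM over pooled negative cells. Counting any receptor and any ligand, 23 of 25 positive cells held both after thinning, against 19 of 48 negative cells. Neither was held by 0 positive and 8 negative cells.

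**Figure D3:**
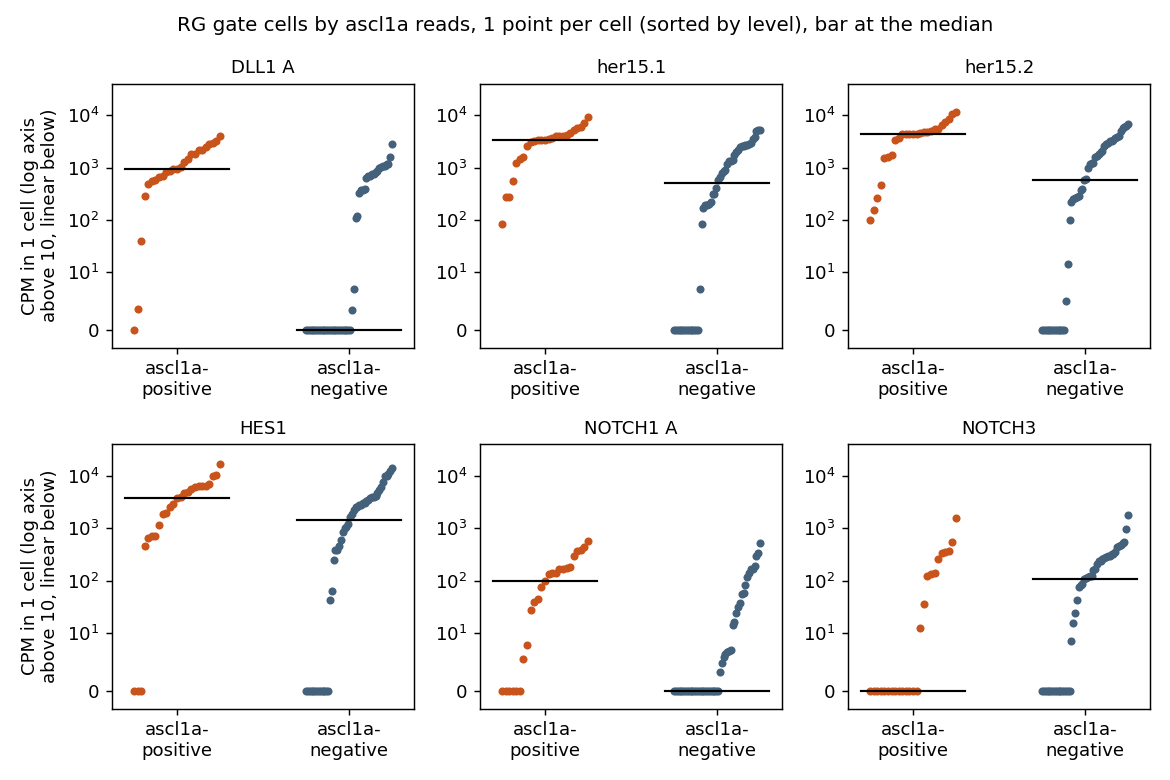
CPM in single RG gate cells (vertical axis, logarithmic above 10 CPM and linear below) of 6 Notch genes in 25 ascl1a-positive cells (orange) and 48 ascl1a-negative cells (blue), sorted by level from left to right, with a bar at the median. The medians of DLL1 A are 953 and 0 CPM and those of her15.2 4361 and 589 CPM, while for NOTCH3 they are 0 and 108 CPM.

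Among the targets, *her15.1* and *her15.2* were found in every positive cell and in 32 and 33 of 48 negative cells after thinning. All 10 RG cells without a read of any *her*, *hes* or *hey* gene other than *HES6* were negative cells. *her4.1* had a read in 25 of 25 positive and 41 of 48 negative cells. The part of such cells in the lower negative shares of these genes, *DLL1* A and others was not tested. *her15.2* stood at 3803, 4433 and 5847 CPM in positive sums and 824, 2046, 1033, 2413, 434 and 2323 CPM in negative sums. Here too the classes did not overlap, at a log2 fold change of 1.55 ± 0.45 SE (adjusted p = 0.166). *her15.1* had a log2 fold change of 1.59 ± 0.48 SE (adjusted p = 0.207). The negative sums include fish 1, 3 and 5, which gave no positive sum. With a block for the fish the log2 fold changes were 0.84 for *her15.2*, 0.88 for *her15.1*, 1.07 for *her2* and -0.14 for *HES1*. None was called, and without the block that of *HES1* was 0.57. *her2* was found in 15 of 25 positive and 12 of 48 negative cells and averaged 2278 ± 1306 and 439.5 ± 468 CPM (adjusted p = 0.623). *HES6* A stood at 81.1, 154 and 122 CPM in positive and 0.983, 0, 0, 11.7, 0 and 9.29 CPM in negative sums (adjusted p = 0.865). After thinning it had a read in 5 of 25 positive and 1 of 48 negative cells, and the positive sums rested on 1, 1 and 2 cells. *HES1*, *HES4* and *her8.2* overlapped between classes, as did *LFNG*, found in 22 of 25 and 24 of 48 cells. So did *her4.1*, the gene behind the sort, at 5111 CPM over pooled positive and 4374 CPM over pooled negative cells.

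Among the receptors, *NOTCH1* A and *NOTCH3* had opposite orders over the pooled cells, and that of *NOTCH3* differed between fish. *NOTCH1* A had a read in 16 of 25 positive and 16 of 48 negative cells after thinning, with 114, 164 and 187 CPM in positive and 12.8, 4.87, 10.3, 104, 32.5 and 56.2 CPM in negative sums, which did not overlap. *NOTCH3* had a read in 10 of 25 positive and 27 of 48 negative cells, with 302, 29.0 and 142 and 39.3, 186, 212, 138, 264 and 235 CPM, which overlapped. By fish, its share was higher in positive cells in fish 1 (1 of 2 against 2 of 5) and fish 2 (4 of 6 against 3 of 5). It was lower in fish 4, fish 5 and batch bfx811, and in fish 2 the positive sum was also the higher. Neither receptor was called (adjusted p = 0.9998 for both), and the difference between the receptors was not tested.

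Cycling moved with these classes: 17 of 25 positive cells had a read of *ccnd1*, a cyclin of G1 phase, against 14 of 48 negative cells, and its part in the differences was not tested. Within cells without a *ccnd1* read, *DLL1* A was found after thinning in 7 of 8 *ascl1a*-positive and 13 of 34 negative cells. Within cells with a *ccnd1* read it was found in 16 of 17 and 8 of 14. *NOTCH3* was found in 4 of 8 against 16 of 34 cells without and in 6 of 17 against 11 of 14 cells with *ccnd1*. For *DLL1* A the positive share was the higher in both strata, and for *NOTCH3* it was lower only among cells with a *ccnd1* read, as a description of few cells.

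Newborn neurons were divided by the 2 genes that mark their main subsets: 61 NBN cells had more reads of *EBF3* (ENSDARG00000100244), a neuronal transcription factor, than of *tubb5*, a tubulin, 84 had more of *tubb5*, and 19 had neither. Across all genes 2.15% of 8475 were called between 4 *EBF3*-leading and 6 *tubb5*-leading sums. Of the 48 list genes 12 were tested and none was called by edgeR, with a median log2 fold change of -0.29 over the 12 and -0.01 over all genes tested. One of the 12, *dlb*, had an unadjusted p under 0.05, as did 874 of all 8475 genes tested. DESeq2 called *dlb* (adjusted p = 0.0092), with *DLK2*, which the filter of edgeR had left out (adjusted p = 0.0138). Of 10493 genes DESeq2 called 197 higher and 416 lower in *EBF3*-leading cells.

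The Delta reads of the NBN gate lay mostly in *tubb5*-leading cells. After thinning, *dll4* had a read in 13 of 84 *tubb5*-leading and 1 of 61 *EBF3*-leading cells, and *dlb* in 8 and 0. *dlb* stood at 0, 0, 0 and 0.964 CPM in the *EBF3*-leading sums of fish 2, 4, 5 and batch bfx811 and at 178, 74.8, 71.6, 0, 131 and 0 CPM in the 6 *tubb5*-leading sums at a log2 fold change of -8.35 ± 2.65 SE (adjusted p = 0.154). *dll4* stood at 0, 0, 0 and 77.6 and 49.9, 76.2, 82.1, 212, 151 and 33.6 CPM. Its *EBF3*-leading level came from the fish of batch bfx811 alone, and without that fish it was called (adjusted p = 0.00662 against 0.919). The 3 *EBF3*-leading sums then left were all 0, so that call follows from the fish left out and adds no support. *LFNG* was found in 13 *tubb5*-leading and 2 *EBF3*-leading cells (adjusted p = 0.689). *DLK2* was found in 5 *EBF3*-leading cells and in no *tubb5*-leading cell, without thinning. *HES6* B was found in 18 *tubb5*-leading and 7 *EBF3*-leading cells and *MIB1* in 20 and 10 after thinning (adjusted p = 0.9994 for both). Depth moved with the subsets, at a median of 350894 reads in *tubb5*-leading and 197164 reads in *EBF3*-leading cells before thinning.

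Of 8 identifiers of 7 proneural genes asked for beside *ascl1a*, 4 were tested in the same fit and 1 was called, *neurod4*, lower in *EBF3*-leading cells (log2 fold change -11.22, standard error 2.69, adjusted p = 0.0424). By edgeR none of them was called between gates (5 tested, 1 with an unadjusted p under 0.05, 1 called by DESeq2) or between *ascl1a* classes (3 tested, 0 with an unadjusted p under 0.05, 0 called by DESeq2). Over all genes an unadjusted p under 0.05 was found with edgeR for 1445 of 8393 between gates and for 467 of 7062 between *ascl1a* classes.

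**Figure D4:**
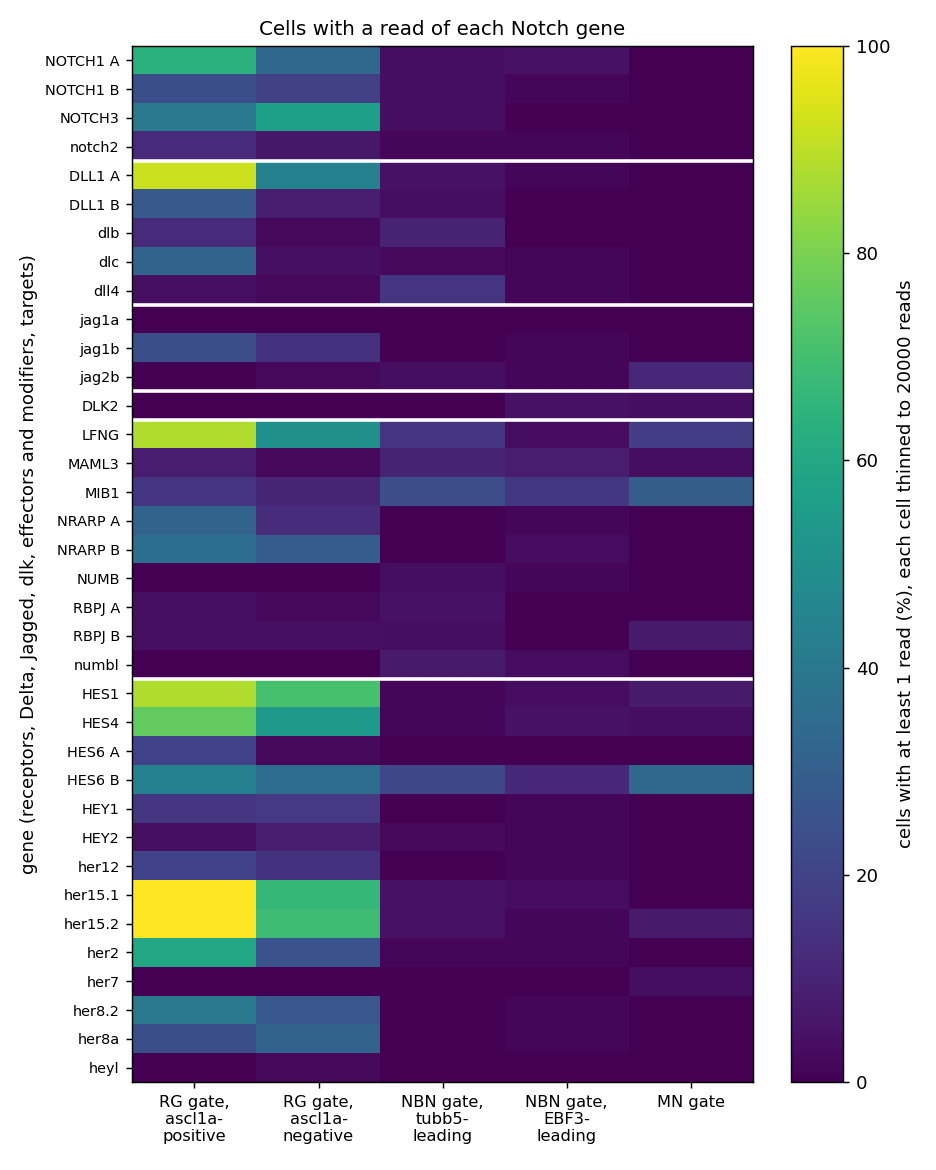
Percent of cells with at least 1 read (colour scale from 0 to 100%, each cell thinned to 20000 reads) of 36 Notch genes, in rows by role, in ascl1a-positive and ascl1a-negative RG cells, tubb5-leading and EBF3-leading NBN cells and MN cells. The left columns hold nearly all high shares, 100% for her15.1 and her15.2 in ascl1a-positive cells, and dll4, at 15.5% of tubb5-leading cells, is found in 1 cell of each RG class.

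The MN gate, from 1 fish, allowed no test, and its values are set beside the NBN cells of the same fish. In 27 MN cells, 26 list genes had a read, and 12 still had one after thinning. No receptor and no Delta ligand had a read in a thinned MN cell. *HES6* B had a read in 9 of 27 MN cells (33.3%, exact 95% interval 16.5 to 54.0%) at 102.8 CPM, and in 3 of 27 NBN cells at 22.3 CPM of the pooled cells. *MIB1* had a read in 9 of 27 MN cells at 88.3 CPM and in 8 of 27 NBN cells at 155 CPM. *LFNG* had a read in 7 MN cells at 41.7 CPM and in 3 of 27 NBN cells at 44.9 CPM. Of the MN reads of *LFNG*, 1 cell gave 74.9%, and for *HES1* and *jag2b* 1 cell gave 66.7% and 60.3%. *jag2b* was the only Delta or Jagged gene with a read in a thinned MN cell, in 3 of 27 MN cells (11.1%, exact 95% interval 2.35 to 29.2%) at 33.8 CPM and in no NBN cell of that fish. *HES1*, *HES4* and *her15.2* had a read in 6, 5 and 5 MN cells before thinning, at 18.0, 1.94 and 2.72 CPM. These intervals and limits cover counting error only.

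The genes that met the rule by letters were kept apart. *JAGN1* A and B lay in opposite gates: A stood at 110.4, 19.3, 75.5, 53.0, 183 and 57.3 CPM in the RG sums and 0, 0, 0, 0, 0 and 6.81 CPM in the NBN sums, while B had no read in any RG sum and 36.4, 67.6, 27.6, 124, 43.4 and 86.7 CPM in the NBN sums. *JAGN1* B was called (adjusted p = 0.00196). Its NBN mean was 398-fold a limit of 3 reads over all RG sums, which covers counting of reads and not of cells. By cells, it had a read in 0 of 73 RG cells, which allows up to 4.11%, and in 21 of 164 NBN cells (12.8%). *JAGN1* A was not called (adjusted p = 0.103), but was called with the block for the fish (adjusted p = 0.0165). It was also called by edgeR after batch bfx811 was left out (adjusted p = 0.00452). The NBN sums then left were all 0, so that call follows from the fish left out and adds no support. *DLD* was alike in both gates, at 163 ± 63.2 and 127 ± 44.2 CPM (adjusted p = 0.97).

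Of 37 identifiers of other genes of the pathway, among them the ADAM proteases, the presenilin complex, fringe and fucosyl transferases, Deltex and Itch ligases and nuclear co-factors, 22 were tested between gates, 20 between *ascl1a* classes and 24 between NBN subsets. None of these was called by edgeR or by DESeq2 in any of the 3 fits, and 1, 0 and 1 had an unadjusted p under 0.05 with edgeR. Over all genes tested these numbers were 1445 of 8393, 467 of 7062 and 874 of 8475. The median log2 fold changes of the tested pathway identifiers were -1.08, -0.10 and -0.48.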

How the data were processed

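Single cells were sorted into plates and sequenced by the SMART-seq2 protocol, which reads whole transcripts and has no molecular identifiers. Per the methods of the study and the submitters' processing notes, the authors aligned single-end reads to GRCz10 with GSNAP, kept uniquely aligned reads and made the deposited raw counts per Ensembl gene with featureCounts 1.5.3. Unique alignment can lose or split reads of near-identical genes, and the strand used in counting is not given in the sources used here.

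Cells with log10 reads above 4.5, log10 genes (over 1 read) of 2.7 to 3.9, under 50% of reads in the top 50 genes, under 20% mitochondrial reads (13 genes) and over 20% mapped reads were kept, 264 of 370. The study also set a limit on spike-in reads, which was not applied here. Its total was also 264, but its numbers of cells kept per gate differ, so the sets of cells are not the same. No doublet caller was run. Counts were summed per fish and class, with at least 3 cells a sum for *ascl1a* classes and 5 for NBN subsets. Fish 1 to 5 come from the sample names, and batch bfx811 was counted as 1 fish. The study names 6 fish. The FISH id label has 4 values, which cross fish 2 and 4, and these values were an alternative to fish.

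Sums were tested with edgeR 4.0.16 (quasi-likelihood, TMM scaling, default filter on low counts, threshold 0.05 adjusted over all genes tested) in R 4.3.3. DESeq2 1.42.0 and limma 3.58.1 (log2 of mean CPM plus 1) were alternatives, beside RLE scaling, no filter, all cells, thinned cells and leaving out each fish. Gates of a fish share an animal, so a block for the fish was an alternative. Over 2000 genes, deviations from the gate mean correlated between gates of a fish at r of -0.029 to 0.0901. Shares of cells used counts thinned to 20000 reads a cell and exact permutation tests over fish (Python 3.11.15, scipy 1.17.1). Intervals are exact binomial with a level of 95% and cover counting error only, and a count of 0 allows 3. Scripts were tested on simulated data.

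The genes and lists were chosen with earlier results of these data known. By the rule for named genes, all fish are given for genes that passed a test or had a read in at least 20% of a gate's cells, and the others by range and count. Sequences and coordinates are not used here.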

Additional observations from a re-analysis of the deposited data

Results flagged for a closer look

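In 45 groups of 6 fish the highest or lowest value was checked for its gap to the next by Dixon's ratio (critical value 0.625). Normal values pass it in about 1 of 20 groups. Many groups here are skewed or hold sums of 0, so that rate does not apply to them. By Dixon's ratio 13 values stood apart. Of these, 9 lay in the NBN gate, and 8 of the 9 in the fish of batch bfx811, which had the shallowest NBN sum (3228221 reads). Each of the 8 rested on 1 to 3 of the 27 NBN cells of that fish, and whether these were the same cells was not tested. Among the 8 were *her15.1* at 99.1 CPM (next 33.7), *her15.2* at 164 CPM (next 44.0), *HES4* at 179 CPM (next 63.0), *her8.2* at 3.41 CPM (next 0.108), *her8a* at 4.96 CPM (next 0), *NRARP* A at 6.51 CPM (next 1.17) and *NRARP* B at 5.58 CPM (next 0.93).

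*jag1b* stood apart in both gates, at 246 CPM in the RG gate of fish 3 (next 49.3) and at 4.34 CPM in the NBN gate of batch bfx811 (next 0.624). *NOTCH3* stood at 53.2 CPM in the NBN gate of fish 2 (next 11.2). In the RG gate *MIB1* stood at 133 CPM in fish 2 (next 48.7), and *NRARP* A was low in fish 5, at 7.28 CPM (next 57.7). The share of RG cells with a receptor read was low in fish 1, at 42.9% (next 80.0%), which rests on 7 cells.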

How the results depend on the processing

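Over 146 alternative values of the 10 genes of the list called between gates, 136 stayed called in the same direction, 10 were no longer called and 0 reversed. Settings in which a called gene was not tested, such as *NRARP* B without batch bfx811, are not among these values. Of the other gene and comparison pairs, 32 values came to be called. Between gates, DESeq2 called 2689 of 13735 genes and 19 of the list, mean per-cell CPM 1937 of 7576 genes and no filter 1232 of 22146 genes. The main fit called 711 of 8393 genes and 10 of the list. With the fish as a replicate block 1035 genes and 13 of the list were called, 74 and 0 between *ascl1a* classes and 189 and 0 between NBN subsets, and the block changed no call other than those of *NOTCH3*, *NRARP* A and *JAGN1* A. Leaving out 1 fish gave 6 (without fish 2) to 12 (without batch bfx811) genes of the list between gates.

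Between *ascl1a* classes 40 genes and 0 of the list were called, against 197 genes with DESeq2, 23 with FISH id values, and 25 to 36 with 1 fish left out. For the list, mean CPM called 3 and no filter 1, in fits of 7075 and 17013 genes. Between NBN subsets 182 genes and 0 of the list were called, against 613 and 2 with DESeq2, 392 with mean CPM, 303 and 1 with no filter, 78 with FISH id values and 291 in thinned cells. Leaving out 1 fish gave 46 (without fish 2) to 267 (without batch bfx811) genes and 0 to 1 of the list.

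With the values of the FISH id label in place of fish (4 pairs) the shares differed by 69.0 points for receptors, 44.9 for Delta ligands and 72.5 for targets, with the smallest exact p that 4 pairs allow. Leaving out 1 fish gave 63.7 to 72.5, 41.1 to 50.04 and 70.2 to 76.0 points, with the smallest exact p that 5 fish allow (0.0625). Over all cells the Delta difference was 15.09 points, and the Jagged difference was 12.98 points without thinning. In MN cells 26 genes of the list had a read and 12 after thinning. Alternatives chosen after seeing the data changed no count of the list: 10 between gates without RG cells that had an *elavl3* read, and 0 between *ascl1a* classes without these. Without *ccnd1* cells only 1 positive sum was left, and its count is not read. With the *JAGN1* genes the Jagged difference was 14.3 points. The cause of these differences was not tested. Depth limits the shares, and 48 RG cells without *ascl1a* reads may hold it under the detection limit.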
